A study of Bos taurus with 12 samples.

Results

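The genes described here encode the WNT ligands, their receptors and the secreted proteins that restrain them, as measured in the bovine endometrium on Day 15 of the estrous cycle. They were chosen by symbol on the array: the WNT, FZD, SFRP, DKK and RSPO families, LGR4 to LGR6, *LRP5*, *LRP6*, *FRZB*, *WIF1*, *AXIN1*, *AXIN2*, *CTNNB1*, *LEF1* and the TCF7 family. The rule reads symbols and no measured value. The symbols took 58 of the 26323 transcripts on the array, under 54 gene symbols. The 2 transcripts labelled *TCF7L2* lie on chromosome 24. The array's annotation describes them as transcription factor 4 (*TCF4*), for which RefSeq lists *TCF7L2* as a synonym. They were therefore set apart, which left 56 transcripts of 53 genes, and *TCF7L2* proper and *TCF7L1* are not analysed here.

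WNT proteins are secreted, lipid-modified signals that bind Frizzled receptors (FZD) and the co-receptors LRP5 and LRP6. In the canonical branch this stops the destruction complex, which contains AXIN1 and AXIN2, from degrading β-catenin (CTNNB1), and β-catenin then acts in the nucleus with TCF/LEF factors. R-spondins (RSPO) bind LGR4, LGR5 and LGR6 and keep Frizzled receptors at the cell surface, whereas SFRP proteins, FRZB and WIF1 capture WNT ligands and DKK proteins occupy the LRP co-receptors. In the uterus, WNT7A is known from the luminal epithelium, where it is required for the development of glands, and WNT4 and WNT5A are known from the stroma.

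Endometrial biopsies came from 4 old females (OF), 4 young females (YF) and 4 contemporary cows (CO), each cow being synchronized and sampled on Day 15, with 1 array per animal. The OF were nulliparous cows of 13 to 14 years and the YF primiparous cows of 4 to 5 years, all of them Holstein clones obtained by somatic nuclear transfer from 1 donor cow, so that age and parity cannot be told apart. The age, parity and origin of the CO are not given in the sources used here, and CO 1111, which the labels say was left out for a divergent phenotype, is shown but was not used in the comparisons. Values are given for OF 0233, 0234, 0245 and 2258, for YF 1069, 1070, 1072 and 1127 and for CO 1068, 1128 and 1129, always in this order. A level is the log2 processed intensity minus the 75th percentile of its array, averaged over the probes of a transcript, so that 1 unit is a doubling and levels of different probes cannot be ranked against each other.

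The share of probes well above background ranged from 71.5% to 74.9% over the arrays, and no probe was saturated. One slide carried OF 0245, YF 1070, YF 1072 and CO 1111, and the other slide carried the remaining arrays. Epithelial and stromal markers of the endometrium were detected on all 12 arrays, for 12 of 12 and 11 of 11 measured genes, as were 8 of 9 leukocyte markers, *ITGAM* being the exception. OF 0234 and OF 2258 stood apart in 16 smooth muscle genes, all of them above background on all 12 arrays. The mean log2 level of these genes was 2.62 and 4.09 in these 2 cows, against −0.19 and 0.30 in the other OF, −0.51 to 0.69 in YF and −0.08 to 0.28 in CO. OF 2258 also had the lowest mean level of the 12 epithelial genes, at −0.20, against 0.60 to 2.63 in all other animals. YF 1069 had the lowest epithelial level of the YF, at 0.60, and the highest mean level of the 11 stromal genes, at 3.36. In a biopsy, fewer cells of a type and less RNA per cell cannot be told apart.

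The 124 member probe names hold 109 different sequences, each a 60-base oligonucleotide of the sense strand, and all 56 transcripts were read by 2 different probes. In many transcripts the probes overlap, so that they are not independent readings. The first 30 bases of both probes are shown for the members on which the results turn, 5′ to 3′, with capitals where the gene's other probe holds the same bases.
*WNT16* probe 1: GTTCATTGAGCAGTTAGTTATATGGATGTG
*WNT16* probe 2: atacattgcagaaGTTCATTGAGCAGTTAG
*WNT6* probe 1: ACAAACGGGGACGTGGAGACATCCGTATGT
*WNT6* probe 2: cACAAACGGGGACGTGGAGACATCCGTATG
*RSPO1* probe 1: tgactttatccttggagagaactGTTACAC
*RSPO1* probe 2: GTTACACATTCATATCAGGGCTTTCCTGAC
*WNT2* probe 1: agaaaatgtgtctgtacaacatgataaggg
*WNT2* probe 2: cttatgatctggcagtattctgtaagtact
*FZD7* probe 1: tggcaaagacttgcaggatgatgctggtga
*FZD7* probe 2: aactgggactgtgagcgattcccctgatgc
*FRZB* probe 1: caggaagcatttatgaagaaatgacacatg
*FRZB* probe 2: aactgaacgacaggcctgtgcactggcctg
The *WNT16* probes share 47 bases, the *WNT6* probes 59 and the *RSPO1* probes 37. No overlap of 30 or more bases was found between the probes of *WNT2*, of *FZD7* or of *FRZB*. Shorter overlaps were not looked for, and *FRZB* probe 1 was above background on 3 of 12 arrays only.

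Among probes of different genes, 4 pairs were at least 80% identical over their overlap, and 2 of these pairs set *WNT7A* beside *WNT7B*. These ligands are close relatives, and their probes lie in the conserved end of the coding sequence. Both probes are shown whole, with the bases that differ in capitals.
*WNT7A* probe 2: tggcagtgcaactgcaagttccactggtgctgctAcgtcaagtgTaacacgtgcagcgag
*WNT7B* probe 2: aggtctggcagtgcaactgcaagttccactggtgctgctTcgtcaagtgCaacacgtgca
Over 55 shared bases they differed at 2. This *WNT7B* probe was well above background on all 12 arrays, whereas the other *WNT7B* probe, from elsewhere in the transcript, was so on 0 arrays. The level of *WNT7B* averages these 2 readings and is given below for each probe.

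**Figure D1:**
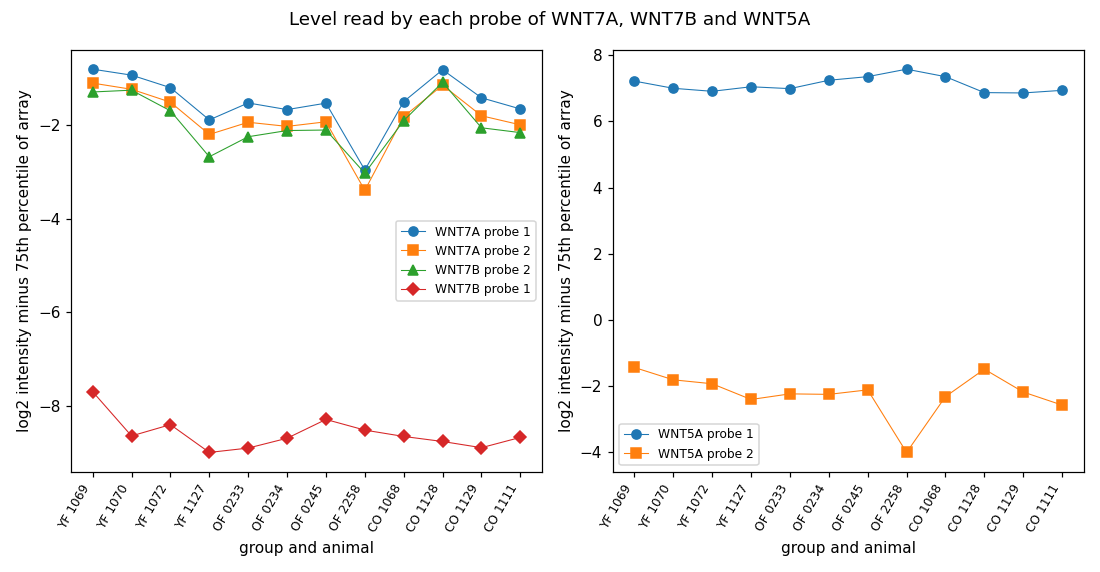
Level read by each probe, as log2 intensity minus the 75th percentile of the array (y axis), in each of the 12 animals (x axis). Left, WNT7B probe 2 runs with both WNT7A probes, lowest in OF 2258, while WNT7B probe 1 stays at or below −7.70 and is not above background on any array; right, the WNT5A probes move in opposite directions in OF 2258 (7.58 and −4.00).

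Most of the pathway was detected. Of the 56 transcripts, 41 were above background on all 12 arrays, 10 on some of them and 5 on none. The 5 without signal were the ligands *WNT3*, *WNT3A*, *WNT8A* and *WNT9A* and the R-spondin *RSPO4*. *WNT1*, *RSPO2* and *DKK4* were above background on 1 array each and *WNT9B* on 2. Thus 10 of 19 ligands, 11 of 12 receptors, 4 of 7 R-spondins and LGRs, 9 of 11 antagonist transcripts, all 3 cytoplasmic members and all 4 TCF/LEF transcripts were detected throughout. A dim reading does not show that a gene was silent.

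OF were compared with YF to ask how the old endometrium differed from the young. In OF, the ligands *WNT16* and *WNT2* stood lower, the receptor *FZD7* stood higher, and *RSPO1* and *FRZB* stood far higher in OF 0234 and OF 2258 alone. No member passed the Benjamini-Hochberg threshold in limma, where the smallest adjusted p of a member was 0.999, nor did any of the 19755 transcripts tested (0 called, 0%). Of the 56 members, 42 passed the filter on dim signals and were tested, 41 of them above background on every array compared. Of these 42, 2 had an unadjusted limma p under 0.05, which is 4.76%, against 2.42% of all transcripts tested. The same 2 members, *FZD7* and *WNT16*, were those in which the 4 OF did not overlap with the 4 YF, against a background of 1.53%. The members had a median absolute log2 difference of 0.32 between OF and YF, against 0.15 over all transcripts tested. Their median signed difference was −0.03 and that of all transcripts 0.01. The absolute difference was 0.48 against 0.19 between CO and OF, and 0.20 against 0.15 between CO and YF. The part of OF 0234 and OF 2258 in it was not tested.

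**Figure D2:**
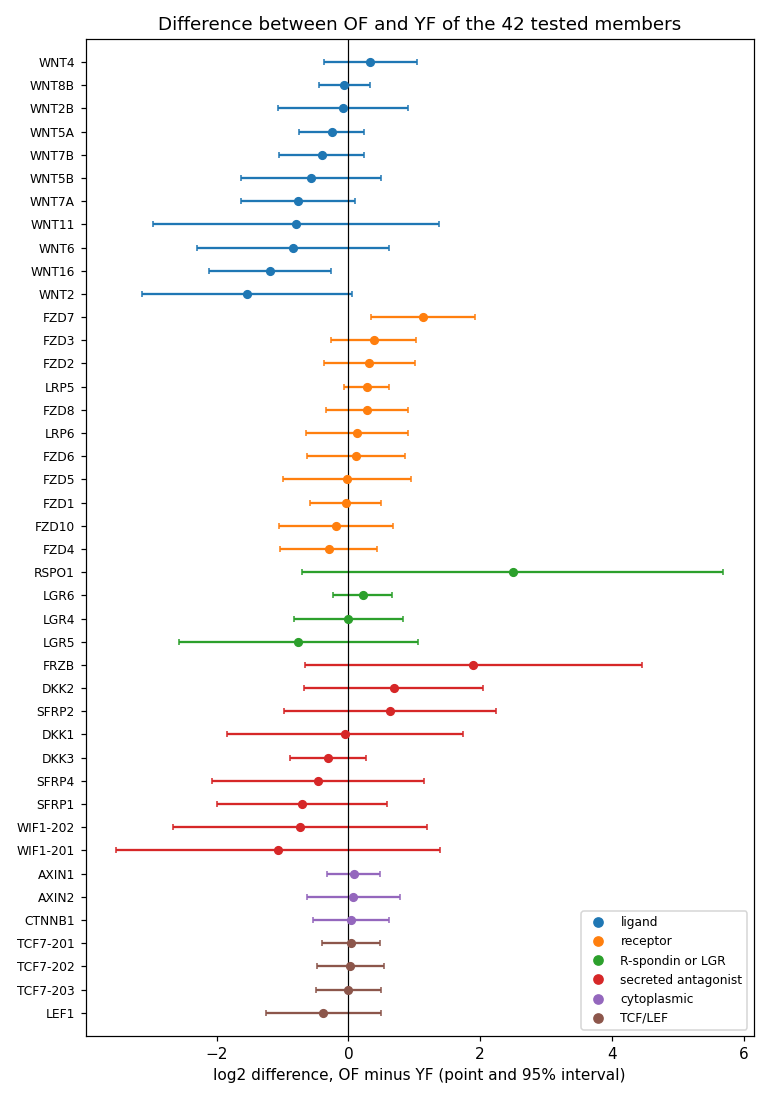
Log2 difference, OF minus YF (x axis), of the 42 tested member transcripts grouped by role (y axis), with points for the limma estimate and bars for its 95% interval (4 OF, 4 YF). Of 11 ligands, 10 lie below 0. Among these, WNT6 passed the filter through YF alone, and the probes of WNT5A and of WNT8B differ in sign. The intervals of FZD7 (0.34 to 1.92) and WNT16 (−2.11 to −0.27) leave out 0 before adjustment for multiple testing.

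The fold change rank ordering statistics (FCROS) rank all pairwise OF to YF ratios and call a transcript from its mean rank and a fold change of 1.5. They called 9 of the 56 members, which is 16.1%, against 4.94% of all 26323 transcripts. *FZD7*, *RSPO1*, *FRZB* and *SFRP5* were called higher in OF, and *WNT2*, *WNT5B*, *WNT6*, *WNT7A* and *WNT16* were called lower. These calls are not adjusted for the number of transcripts. With OF 0234 and OF 2258 both left out, FCROS called 6 of the 56 members, against 1278 of all 26323 transcripts. Of the 9 it kept *WNT2*, *WNT5B* and *WNT16*.

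Of 11 ligands tested, 10 stood lower in OF and *WNT4* stood higher, with a median log2 difference of −0.57, and 1 of them had an unadjusted limma p under 0.05, against 2.42% of all transcripts. Among the 10, *WNT6* passed the filter on dim signals only through YF, the group where it was higher. *WNT7B* averages a probe resembling *WNT7A* and a probe at background. The probes of *WNT5A* and those of *WNT8B* gave differences of opposite sign. The stromal markers also stood lower in OF, 11 of 11 with a median log2 difference of −0.27 and none at an unadjusted limma p under 0.05, with mean log2 levels of 2.11 to 2.88 in OF and 2.19 to 3.36 in YF. Of 12 epithelial markers, 9 stood lower in OF and 3 higher, with a median log2 difference of −0.28 and 0 at that threshold. The part of stroma and epithelium in the ligand values was not tested. *WNT16*, a ligand best known for its part in bone (chr4:86598084-86609355 in UMD3.1), had levels of −1.91, −1.48, −2.12 and −2.94 in OF and of 0.09, −1.36, −1.12 and −1.31 in YF. Every OF was below every YF, narrowly so for OF 0234 (−1.48) and YF 1070 (−1.36). OF 2258 was the lowest, and YF 1069 lay far above the other YF. The log2 difference of *WNT16* was −1.19 (SE 0.40, n = 4 and 4), with an unadjusted limma p of 0.0175. The two-sided exact permutation test over animals gave p = 0.0286, the smallest that test can give. Within the slides the difference was −0.88 and −1.50, and a slide block gave −1.28. Weighting the arrays reduced the difference to −0.54.

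*WNT2*, a canonical ligand (chr4:51398056-51441973), stood at −0.44, −0.06, −0.80 and −3.15 in OF and at 1.68, 0.11, 0.01 and −0.10 in YF. The groups overlapped only through OF 0234 and YF 1127, and the extremes were OF 2258 and YF 1069. The log2 difference was −1.54 (SE 0.70), with an exact permutation p of 0.0571, and both probes gave it alike, at −1.53 and −1.55. Within the slides it was −0.86 and −2.01. Leaving out OF 2258 gave −0.86, and array weights gave −0.50.

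*WNT7A*, which is known from the epithelium (chr22:58809372-58873170), stood at −1.73, −1.85, −1.73 and −3.18 in OF and at −0.95, −1.08, −1.35 and −2.04 in YF. YF 1069, 1070 and 1072 lay above all OF, and YF 1127 lay among them. The log2 difference was −0.76 (SE 0.38, exact permutation p = 0.114), and −0.41 without OF 2258, the cow with the lowest epithelial markers. The part of the epithelial share in these values was not tested. The *WNT7B* probe resembling *WNT7A* gave −0.65, near the −0.72 and −0.81 of the *WNT7A* probes, whereas the *WNT7B* probe at background gave −0.17. Whether the former reads *WNT7A* RNA was not tested.

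*WNT6* and *WNT5B* were split within YF. *WNT6* (chr2:107544683-107556681) stood at −5.23, −5.66, −4.92 and −7.26 in OF and at −4.00, −4.54, −4.71 and −6.45 in YF, with a log2 difference of −0.84 (SE 0.64, exact permutation p = 0.314). Its reading in OF 2258 was not above background. YF 1069, 1070 and 1072 lay above all OF, but YF 1127 lay below 3 of the 4 OF. *WNT5B*, a non-canonical ligand (chr5:108637813-108649951), stood at −2.89, −2.23, −2.63 and −2.01 in OF and at −1.35, −1.08, −1.74 and −3.30 in YF, with a log2 difference of −0.57 (SE 0.46, exact permutation p = 0.343). YF 1127 was again the exception, as the lowest of the 8 cows. Without YF 1127 the differences were −1.35 for *WNT6* and −1.05 for *WNT5B*, and without YF 1070 that of *WNT5B* was −0.31. Within the slides *WNT5B* was −1.22 and −0.05. *WNT6* was −0.35 without OF 2258 and −0.54 without YF 1069.

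The remaining detected ligands showed no separation of the groups. *WNT11* stood at −5.47 in OF 2258 alone and between −2.94 and −0.98 in the other OF and the YF. The readings of *WNT5A*, a non-canonical ligand of the stroma, depended on the probe. One probe gave a log2 difference of 0.25 and the other of −0.76, so that the average of −0.25 represents neither. *WNT4*, a ligand of stromal differentiation, was 0.33 higher in OF (SE 0.31).

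**Figure D3:**
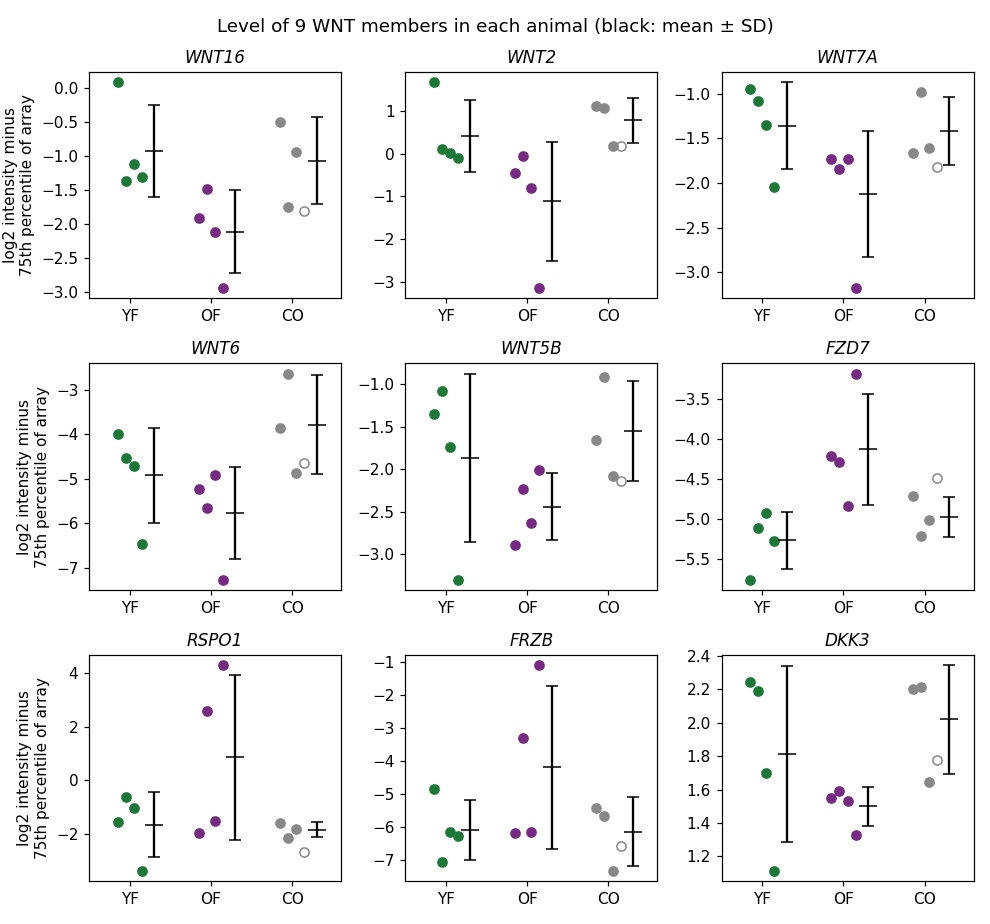
Level (log2 intensity minus the 75th percentile of the array, y axis) of 9 members in each animal of YF, OF and CO (x axis), with black bars for the mean ± SD; the open point is CO 1111, left out of mean and SD. WNT16 and FZD7 separate OF from YF, while RSPO1 and FRZB are high in 2 OF only.

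Among receptors, *FZD7* was the member with the smallest unadjusted p. It encodes a Frizzled receptor of canonical and non-canonical signals (chr2:90987008-90989214). Its levels were −4.22, −4.29, −4.84 and −3.19 in OF and −5.76, −5.12, −4.92 and −5.28 in YF. Every OF was above every YF, with a gap of less than 0.1 between OF 0245 and YF 1072. The log2 difference was 1.13 (SE 0.35, 2.19-fold), with an unadjusted limma p of 0.0104, and p = 0.0286 in the exact permutation test. Both of its probes were higher in OF, by 1.47 and 0.80. The probe with 1.47 was above background on 11 of 12 arrays and read lowest in YF 1069, at −6.41. The difference lay mostly on 1 slide, at 1.62 with 3 OF and 2 YF, against 0.18 on the slide with 1 OF and 2 YF, and a slide block gave 1.10. It was 0.74 without OF 0234 and OF 2258, and 0.52 after normexp background correction.

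The other receptors differed little. Of 11 tested, 7 stood higher and 4 lower in OF, with a median log2 difference of 0.13. *FZD3*, a receptor of planar polarity signals, stood at −3.52, −4.10, −4.43 and −3.36 in OF and at −4.62, −4.41, −4.11 and −3.79 in YF (0.38, SE 0.28). The groups overlapped. The co-receptor *LRP5* was 0.28 higher in OF (SE 0.15, exact permutation p = 0.0857) and *LRP6* was 0.13 higher (SE 0.34). All other Frizzled transcripts lay between −0.30 for *FZD4* and 0.32 for *FZD2*.

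R-spondins varied widely between animals. *RSPO1* (chr3:108854245-108874912) stood at −1.94, 2.58, −1.51 and 4.28 in OF and at −1.54, −0.62, −1.03 and −3.37 in YF. OF 0234 and OF 2258 were above all other cows, while OF 0233 and OF 0245 lay within YF. The log2 difference was 2.49 (SE 1.40, 5.63-fold), and the exact permutation test gave p = 0.257. Leaving out OF 2258 gave 1.35, and leaving out both OF 0234 and OF 2258 gave −0.08, so that the direction turned. On the slides, it was −0.68 with OF 0245 alone and 4.09 with the other OF.

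*RSPO3* (chr9:24365333-24508267) followed the same 2 cows. It stood at −8.29, −2.34, −7.79 and −0.50 in OF and at −6.40, −8.27, −5.72 and −8.36 in YF. It was above background in 2 OF, 2 YF and 0 CO, and limma did not test it. Its exact permutation p was 0.314.

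*LGR5*, a receptor of R-spondins and a marker of epithelial progenitors in several tissues, stood at −0.92, −2.15, −1.32 and −4.59 in OF and at −2.37, −0.31, −1.63 and −1.63 in YF (−0.76, SE 0.79). OF 2258 was the lowest cow, and the other OF lay within YF. *LGR4* and *LGR6* had log2 differences of 0.00 and 0.22.

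The secreted antagonists did not move as 1 group. Of 9 transcripts tested, 3 stood higher and 6 lower in OF, and none had an unadjusted limma p under 0.05 or separated groups. *FRZB* (chr2:13724668-13761787), also known as SFRP3, stood at −6.19, −3.32, −6.17 and −1.10 in OF and at −4.86, −7.07, −6.15 and −6.28 in YF. OF 0234 and OF 2258 were again above all other cows. Probe 1 was above background in YF 1069, OF 0234 and OF 2258 only. The log2 difference was 1.90 (SE 1.12, exact permutation p = 0.229), with 1.84 from probe 2, 0.87 without OF 2258 and −0.09 without both cows. Within the slides it was 0.44 and 2.04, and a slide block gave 1.47.

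*SFRP2* also had its highest levels, 3.34 and 4.30, in OF 0234 and OF 2258, against 0.89 to 2.75 in the other OF and the YF. The smooth muscle genes were highest in the same 2 cows, and their part in *RSPO1*, *RSPO3*, *FRZB* and *SFRP2* was not tested. *DKK2*, an antagonist at the LRP co-receptors, stood at −4.44, −3.32, −4.78 and −2.40 in OF and at −3.18, −5.01, −4.57 and −4.93 in YF (0.69, SE 0.59). YF 1069 was above 3 of the 4 OF.

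**Figure D4:**
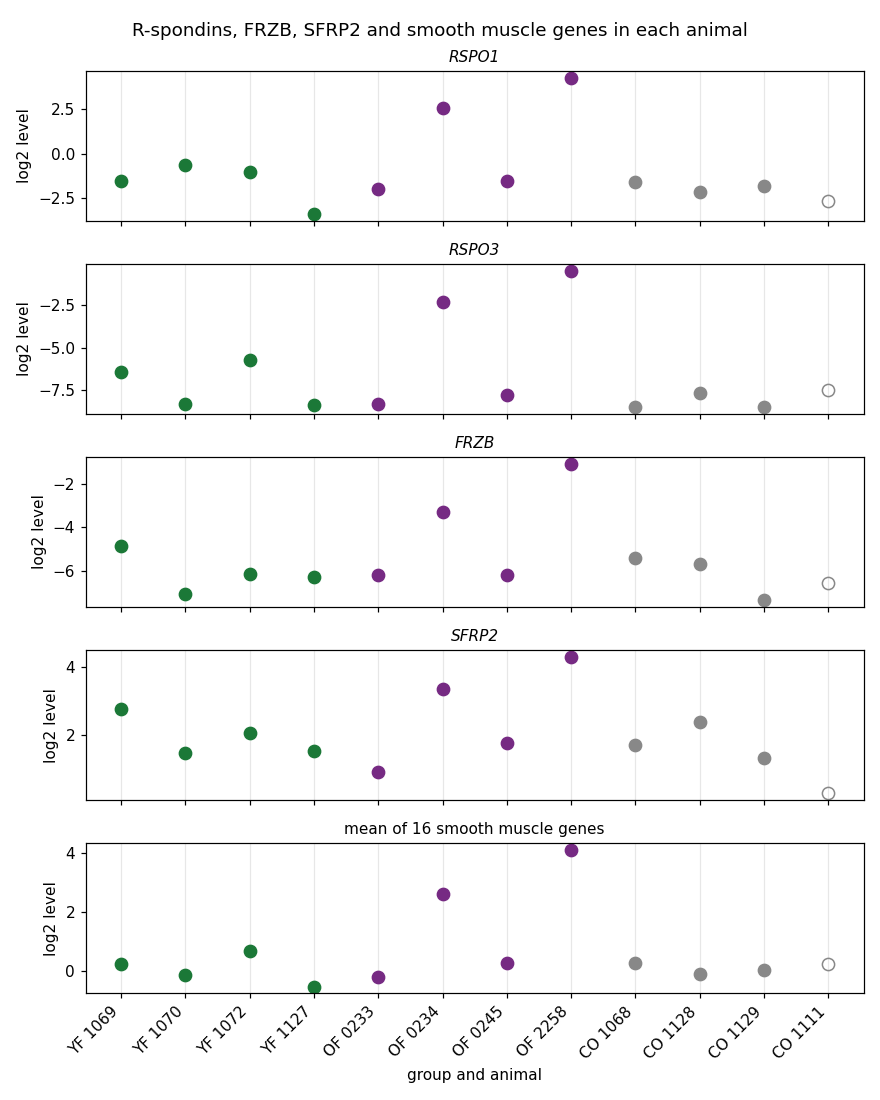
Log2 level (y axes) of RSPO1, RSPO3, FRZB and SFRP2 and the mean log2 level of 16 smooth muscle genes in each animal (x axis; green YF, purple OF, grey CO, open point CO 1111). OF 0234 and OF 2258 are the highest 2 animals in all 5 panels.

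*SFRP1*, which captures WNT ligands (chr27:35900362-35943920), stood at 1.88, 3.47, 2.25 and 3.38 in OF and at 4.90, 3.35, 3.04 and 2.50 in YF. The groups overlapped, and the log2 difference was −0.71 (SE 0.56, exact permutation p = 0.371). *SFRP5* was dim, above background on 10 of 12 arrays, and stood 0.68 higher in OF without a limma test. *WIF1* was read as 2 transcripts that share 1 probe. The lower reading was −6.97 in OF 2258 alone, against −4.63 to −1.09 in the other OF and the YF, and its log2 difference of −1.07 had an SE of 1.07. *DKK1* differed by −0.05 (SE 0.78) and *DKK3* by −0.31 (SE 0.25).

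Intracellular members differed little. *AXIN2*, a direct target of canonical signalling that is used as its readout, stood at −0.10, 0.74, 0.45 and −0.31 in OF and at 0.44, 0.06, 0.52 and −0.55 in YF, a log2 difference of 0.08 with a 95% interval of −0.63 to 0.79. The groups overlapped throughout. *AXIN1* differed by 0.08 (95% interval −0.32 to 0.48) and *CTNNB1* by 0.04 (SE 0.25). *LEF1* differed by −0.38 (SE 0.38), with OF 2258 lowest at −5.36. The 3 *TCF7* transcripts lay between 0.00 and 0.04, but 2 of them carry identical probes and are 1 reading.

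CO were set against OF and YF with the same tests, as a further group of cows. These comparisons share their OF or YF animals with the one above and are not independent of it. Against OF, ligands stood higher in CO: 10 of 12 tested, with a median log2 difference of 0.60. The 10 include *WNT6* and *WNT10A*, which passed the filter on dim signals only through CO, the group where they were higher. They also include *WNT7B*, which averages a probe resembling *WNT7A* and a probe at background. The probes of *WNT5A*, also among the 10, gave −0.26 and 0.66. All 11 stromal markers stood higher in CO (median 0.53, 3 at an unadjusted limma p under 0.05), as did 8 of 9 endothelial markers (median 0.34, 2 at that threshold), whereas 15 of 16 smooth muscle genes stood lower (median −1.84, none at that threshold). Of 12 epithelial markers, 8 stood higher in CO and 4 lower (median 0.31, 0 at that threshold). The mean log2 level of the stromal genes was 2.82 to 2.96 in CO and 2.11 to 2.88 in OF. The part of these cell types in the ligand values was not tested. Of 44 members tested, 6 had an unadjusted limma p under 0.05, all of them higher in CO, which is 13.6%, against 4.57% of all 19914 transcripts. None passed adjustment (0 members and 0% of transcripts called, smallest adjusted p of a member 0.912). The groups did not overlap in 4 members, which is 9.09%, against 5.79% of all transcripts. *WNT6*, *WNT10A* and *SFRP5* were above background on all CO but not on all OF and passed the filter through CO alone. Among the other 41 members, 4 had an unadjusted limma p under 0.05 and 3 had groups that did not overlap.

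*WNT6* stood at −3.86, −2.64 and −4.86 in CO, all above the 4 OF, with a log2 difference of 1.98 (SE 0.69, exact permutation p = 0.0286) that includes OF 2258, where it was not above background, and 1.48 without that cow. The gap between the lowest CO and the highest OF was less than 0.1. *WNT2* stood at 1.12, 1.07 and 0.19 in CO, again above every OF, with a log2 difference of 1.91 (SE 0.72, exact permutation p = 0.0571), and 1.23 without OF 2258. *DKK3*, a divergent DKK that does not act as a typical antagonist (chr15:41241522-41291990), stood at 2.20, 2.21 and 1.64 in CO and at 1.55, 1.59, 1.53 and 1.33 in OF. Its groups were apart by less than 0.1, and the log2 difference was 0.52 (SE 0.19, exact permutation p = 0.0286).

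*WNT7A* was the other member whose groups did not overlap, at −1.66, −0.98 and −1.61 in CO, with a log2 difference of 0.71 (SE 0.40), and 0.35 without OF 2258. *WNT16* stood at −0.50, −1.75 and −0.94 in CO, 1.05 above OF (SE 0.41), and CO 1128 overlapped with OF. With array weights the *WNT16* difference was 0.23. *WNT5B* stood at −1.66, −0.92 and −2.08 in CO, 0.89 above OF (SE 0.33), and 0.57 without CO 1128. *WNT10A* was dim, above background in 3 of 3 CO and 1 of 4 OF, and stood 0.50 higher in CO (SE 0.19), through only 1 of its 2 probes.

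With CO 1111 included, 5 members had an unadjusted limma p under 0.05 (11.4%, against 5.39% of all transcripts), and with OF 0234 and OF 2258 left out there were 4 (8.89% against 7.13%). Without CO 1068 there was 1 (2.22%), below the 8.50% of all transcripts, and without CO 1128 there was 1 (2.27% against 3.79%). Without OF 0233 there were 3 (6.82% against 4.39%). The members' share thus fell below that of all transcripts when CO 1068 or CO 1128 was left out. It stayed above, but by less than in the main fit, without OF 0233 and without OF 0234 and OF 2258. All the CO used lay on the slide that held 3 of the OF. Within that slide *WNT6* was 2.27, *WNT2* 2.01, *WNT16* 1.05, *WNT5B* 0.83 and *DKK3* 0.53 higher in CO.

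Against YF, no member had an unadjusted limma p under 0.05 (0 of 44, against 3.03% of 19993 transcripts), none had groups that did not overlap (background 3.83%), and none passed adjustment (0% of transcripts). The largest differences were 1.14 for *WNT6* (SE 0.68, exact permutation p = 0.286) and −1.04 for *LGR5* (SE 0.70), the latter through CO 1068 at −4.06. *WNT16* differed by −0.14, with a 95% interval of −1.13 to 0.85, and *FZD7* by 0.29, with a 95% interval of −0.25 to 0.84. *RSPO1* stood at −1.57, −2.13 and −1.79 in CO, within YF, and *FRZB* at −5.42, −5.68 and −7.34.

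**Figure D5:**
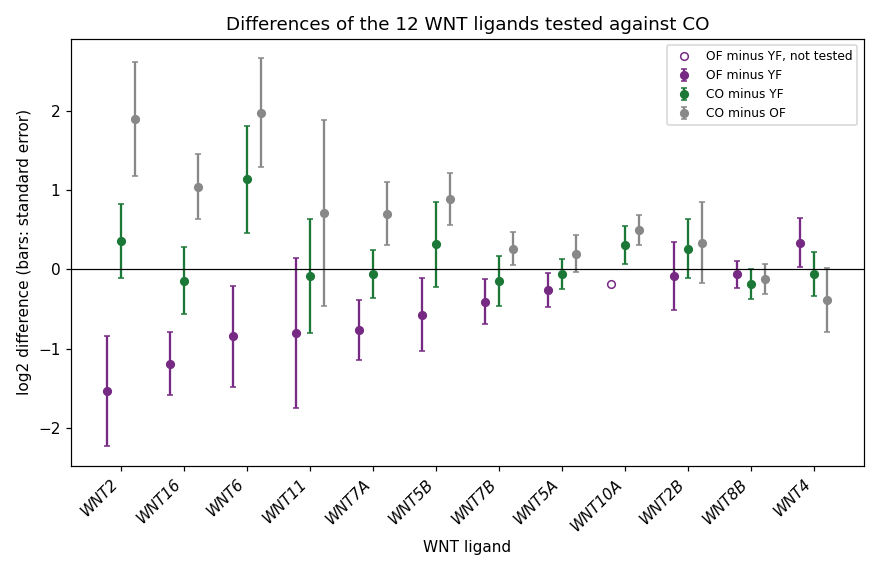
Log2 difference (y axis; bars, standard error) of the 12 WNT ligands tested between CO and OF (x axis), for OF minus YF, CO minus YF and CO minus OF, which share animals; the open point was not tested. WNT2, WNT16, WNT6, WNT7A and WNT5B lie below 0 in OF minus YF and above 0 in CO minus OF.

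Other genes of the pathway, from a list of 64 of which 62 were on the array, were tested in the same fits. Between OF and YF, 1 of 52 tested had an unadjusted limma p under 0.05 and stood higher in OF, and 2 stood lower, together 5.77%, against 2.42% of all transcripts. The higher one was *EPHB3*, a target gene that positions epithelial cells (0.57, SE 0.22). The lower ones were *NDP*, which encodes the FZD4 ligand norrin (−0.80, SE 0.30), and *TNFRSF19*, a target gene (−0.96, SE 0.40). The 52 genes had a median log2 difference of 0.09, against 0.01 over all transcripts.

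In CO, *KREMEN2*, a receptor for DKK proteins, stood 1.11 below YF (log2 difference −1.11, SE 0.21, exact permutation p = 0.0286, adjusted limma p = 0.525). It passed the filter on dim signals through YF alone, the group where it was higher, and was not tested between CO and OF. *ROR1*, a receptor of WNT5A, was lower in CO than in YF (−0.43, SE 0.17) and than in OF (−1.44, SE 0.52), and these were the 2 of 52 genes and the 1 of 51 that stood lower at an unadjusted limma p under 0.05. *NDP* (0.82, SE 0.33), *TNFRSF19* (1.17, SE 0.47) and *TLE4*, a co-repressor of TCF/LEF factors (0.42, SE 0.17), stood higher in CO than in OF, and no gene of the list stood higher in CO than in YF at that threshold. These counts came to 3.85% of the list against YF and 7.84% against OF, beside 3.03% and 4.57% of all transcripts. The 18 tested genes of cytoplasmic signalling held none at an unadjusted limma p under 0.05 in any comparison.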

How the data were processed

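Total RNA of each endometrial biopsy was hybridized in 1 colour (Cy-3) to a custom Agilent array. The spot intensity deposited by the authors is the processed signal of Feature Extraction 10.7.3.1, which is background-corrected but not normalized between arrays. Positions are those of the array's annotation (UMD3.1). Controls (1319 spots) and 66 probes flagged as outliers were left out, log2 was taken, the 75th percentile of each array was subtracted, and probes were averaged per transcript. Transcripts with at least 1 probe that passed the background flag on all arrays of 1 group were tested with limma 3.58.1 in R 4.3.3, on the 2 groups compared, two-sided, with Benjamini-Hochberg adjustment at 0.05, and single values with the exact permutation test over animals. FCROS, the study's method, was coded from its description, trimming a share of 0.25 from both tails of the ranks and calling f-values under 0.025 or over 0.975. Both were run on simulated data with independent errors, a check of the code that holds no shifts shared by the genes of an animal. The number of arrays limits the precision. Alternatives were quantile normalization, normexp, median centring, the brightest probe, no filter, the slide as a block, 3 groups in 1 fit, array weights, CO 1111 included, FCROS without trimming or on the transcripts tested by limma, and each animal left out.

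Members, lists and tests were chosen with earlier results of these data known. Named members are those with an unadjusted limma p under 0.05 or groups that did not overlap in any comparison, a FCROS call, or a place in the study's list of changed transcripts, and the 2 per role with the largest difference between OF and YF; others are named as examples. Other pathway genes are read by their transcript with the highest mean level.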

Additional observations from a re-analysis of the deposited data

Results flagged for a closer look

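In each of the 22 named member transcripts, the levels of the 4 OF and of the 4 YF were checked for 1 animal lying far from the other 3, which made 44 groups, of which chance alone flags about 1 in 20. There were 5 such groups. In OF, animal 2258 stood apart in *WNT7A*, at −3.18 against −1.85 for the next, and in *WIF1*, at −6.97 against −3.30. In YF, animal 1069 stood apart in *WNT16*, at 0.087 against −1.12, and in *WNT2*, at 1.68 against 0.11. YF 1127 stood apart in *WNT10A*, at −7.85 against −7.16.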

How the results depend on the processing

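Of 255 member differences recomputed under alternatives, 253 kept their direction and all stayed on the same side of the adjusted threshold. The 2 that turned were *RSPO1* (−0.084) and *FRZB* (−0.087) between OF and YF with OF 0234 and OF 2258 left out, an alternative chosen after seeing the data. With array weights, members at an unadjusted limma p under 0.05 numbered 9 between OF and YF, 4 between CO and YF and 17 between CO and OF (21.4%, 9.09% and 38.6%, against 11.01%, 6.56% and 16.3% of all transcripts), and transcripts past adjustment 1 between CO and YF and 26 between CO and OF. Transcripts past adjustment between CO and YF were 1 with quantile normalization, 2 with all 3 groups in 1 fit and 4 with CO 1111 included, and between CO and OF 2 with CO 1111 included; none was a member. FCROS called 5 of the 56 members after normexp with quantile normalization, against 545 of all 26323 transcripts. Without trimming it called 5 members, against 1051 of all transcripts. Leaving out 1 animal in turn changed the number of members at an unadjusted limma p under 0.05. Between OF and YF it ranged from 2 to 7 (4.65% to 16.3%, against 1.95% to 4.84% of all transcripts). It was 7 without YF 1127 (16.3% against 2.70%) and 4 without OF 0233 (9.52% against 4.84%). Between CO and YF it ranged from 0 to 3 (0% to 6.82%, against 2.43% to 4.87%). Between CO and OF it ranged from 1 to 5 (2.22% to 11.4%, against 3.31% to 8.50%). Transcripts past adjustment ranged, in the same order, from 0 to 0, from 0 to 1 and from 0 to 1. FCROS called from 7 to 10 members, against 1190 to 1555 of all transcripts. The causes were not tested. No paired analysis was possible because the groups share no animal numbers. Signal near background limits the dim ligands and *RSPO3*.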
